A study of Mus musculus with 4 samples.

Results

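The subject is the family of genes for NMDA receptor subunits in mouse motor cortex: Grin1, Grin2a, Grin2b, Grin2c, Grin2d, Grin3a and Grin3b. They were taken by their symbols, and all 7 were found among the 32285 genes of the count matrices. The choice was made with earlier results of these data known. NMDA receptors are glutamate-gated cation channels that open only when the membrane is also depolarized, because magnesium blocks the pore at rest, and their calcium current starts many forms of synaptic plasticity. Each receptor holds the obligatory GluN1 subunit (Grin1), which binds glycine or D-serine, together with GluN2 subunits (Grin2a to Grin2d), which bind glutamate, or GluN3 subunits (Grin3a and Grin3b), which bind glycine. The GluN2 subunit sets how long the channel stays open and how strongly magnesium blocks it. GluN2A and GluN2B are the main GluN2 subunits of the adult forebrain, and GluN2A becomes more common at cortical synapses during postnatal development.

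Single-nucleus RNA was counted from frozen primary motor areas of C57BL/6N mice, cut out of coronal sections, with 1 library for each of 4 groups. The first group was kept awake by gentle handling and is set against mice left to sleep ad lib. The other 2 groups received a local AAV8 injection, in which the human synapsin promoter, a neuronal promoter, drove FLAG-tagged SIK3. One vector carried SIK3 lacking exon 13, which the series' design text describes as a gain-of-function form, and the other carried wild-type SIK3. SIK3 is a salt-inducible kinase. The study thus compares gene expression at different sleep need. All 4 groups share the strain and the tissue, and the labels give neither age, sex and length of sleep deprivation nor the number of mice per library. With 1 library per group no test between groups can be made: every interval below covers counting error only, and a difference between libraries cannot be told apart from a difference between animals, dissections or library preparations.

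After filters 25398 nuclei were kept. Unique molecular identifiers (UMIs) totalled 49422196 in sleep deprivation, 54070503 in ad lib sleep, 43655557 with the exon 13 deleted vector and 47662932 with the wild-type vector, over all barcodes. Median UMIs per excitatory nucleus were 13475 in sleep deprivation, against 7321 in ad lib sleep, and 9722 with exon 13 deleted, against 9000 with wild type, so depth per nucleus moves with the groups. Clusters were named by marker genes as excitatory-like (10751 nuclei), inhibitory-like (2783), striatal projection neuron-like (1176), astrocyte-like (1744), oligodendrocyte precursor-like (505) and 5 other non-neuronal classes, and the word "like" is left out from here on. Nuclei in clusters that stayed unnamed made up 31.3% of the sleep deprivation library and 10.4%, 14.6% and 13.5% of the ad lib, exon 13 deleted and wild-type libraries. Most lay in 1 cluster of 3302 nuclei with a median of 1001 UMIs. Its marker levels were nearest to those of excitatory neurons, and 43.9% of its nuclei came from sleep deprivation. The excitatory medians above and the excitatory levels below do not include it. Striatal neurons, with their marker Drd1 at 83.2 CPM (defined below), are not cells of the labelled tissue. Of 28619 barcodes, 75 occurred in 2 or 3 libraries. The vector's own sequence feature had no UMI in the excitatory neurons of the uninjected libraries. In excitatory neurons it reached 128 CPM with exon 13 deleted and 46.0 CPM with wild type, and was seen in 25.4% and 20.5% of their nuclei.

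Levels below are CPM, the UMIs of a gene per 1000000 UMIs of all genes summed over the nuclei of a class or subclass in 1 library. The subunit and partner genes took no part in clustering or naming. Because the GluN2A and GluN2B genes are long, with 428 and 460 kb against 28.0 kb for Grin1, and because nuclear RNA holds introns, levels of different genes are compared only per kilobase. In excitatory neurons the order depended on that length. Per kilobase of gene, Grin1 came first at 12.96 CPM, with Grin2b at 3.85 and Grin2a at 3.51. Per kilobase of exons, Grin2a came first at 83.8 CPM, with Grin2b at 71.4 and Grin1 at 37.4. On both scales these 3 genes stood above the other 4 in excitatory neurons, of which the highest were Grin2d at 0.200 CPM per kilobase of gene and Grin3a at 1.61 CPM per kilobase of exons. Whether introns were counted, and whether strand was used, is not given in the sources used here, so neither order is settled.

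Grin1, the obligatory subunit (chromosome 2, 25291181 to 25319187, minus strand, mm10), was detected in every neuron subclass over a narrow range. Its mean over the 4 libraries ran from 390 ± 26.7 CPM (SD, n = 4 libraries) in layer 6 corticothalamic (CT) neurons down to 237 ± 25.9 CPM in Vip interneurons, and no 2 neighbours in the order of the 13 subclasses were separated by more than their ranges. Layer 5 extratelencephalic (ET) neurons had 360 to 405 CPM, and layer 2/3 intratelencephalic (IT) neurons 348 to 409 CPM. Pvalb interneurons had 251 to 278 CPM, below every value of layer 2/3 IT. The 4 inhibitory subclasses and layer 6b thus took the 5 lowest places. Grin1os, annotated as antisense to Grin1 over 7706 bases, had 14.9 CPM in excitatory neurons, and reads of the pair cannot be assigned where strand was not used.

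Grin2a (chromosome 16, 9567898 to 9995560, minus strand), which encodes GluN2A, the subunit of fast-closing channels, was highest in Lamp5 and Sncg interneurons, a group that holds neurogliaform cells. There it had 3616 CPM in sleep deprivation, 3539 in ad lib sleep, 3345 with exon 13 deleted and 3206 with wild type. The next subclass, layer 2/3 IT, had 1638 to 1932 CPM, so the ranges did not overlap. At the other end were Vip interneurons with 509 to 640 CPM and layer 6b, the deepest cortical layer, with 431 to 740 CPM. Inhibitory neurons therefore held both the top of the order and 1 of its 2 lowest places: Sst cells had 1389 to 1599 CPM and Pvalb cells 807 to 1016 CPM. To compare shares of nuclei across depths, each nucleus was thinned to 2000 UMIs and shallower nuclei were left out. A Grin2a UMI was then found in 93.1 to 98.2% of Lamp5 and Sncg nuclei (97.4 to 98.6% unthinned) and in 45.3 to 53.9% of Vip nuclei (68.9 to 77.2% unthinned). Oligodendrocytes, a class that should lack the gene, had 15.6 to 23.9% (17.8 to 25.2% unthinned).

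Grin2b (chromosome 6, 135713233 to 136173511, minus strand), which encodes GluN2B, the subunit that binds CaMKII and gives slower currents, was found at over 1000 CPM in every neuron subclass and library. Layer 2/3 IT neurons led in all 4 libraries with 2421 CPM in sleep deprivation, 2091 in ad lib sleep, 2136 with exon 13 deleted and 2193 with wild type. Striatal projection neurons came second with 1800 to 1908 CPM. The lowest mean was that of layer 5/6 near-projecting (NP) neurons, which had 1155 to 1320 CPM. This range did not overlap that of the next-lowest by mean, Pvalb cells at 1326 to 1511 CPM. It did overlap that of layer 6b, whose ad lib sleep value, given below, lay inside it. From second to the second-lowest place, all 10 neighbouring pairs overlapped. Within the striatal neurons, the direct pathway cells had 1925 to 2023 CPM of Grin2b and the indirect pathway cells 1674 to 1842 CPM, so these ranges did not overlap. Gm14330, an antisense gene inside Grin2b, had 55.6 CPM in excitatory neurons, and its reads carry the same limit as those of Grin1os.

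**Figure D1:**
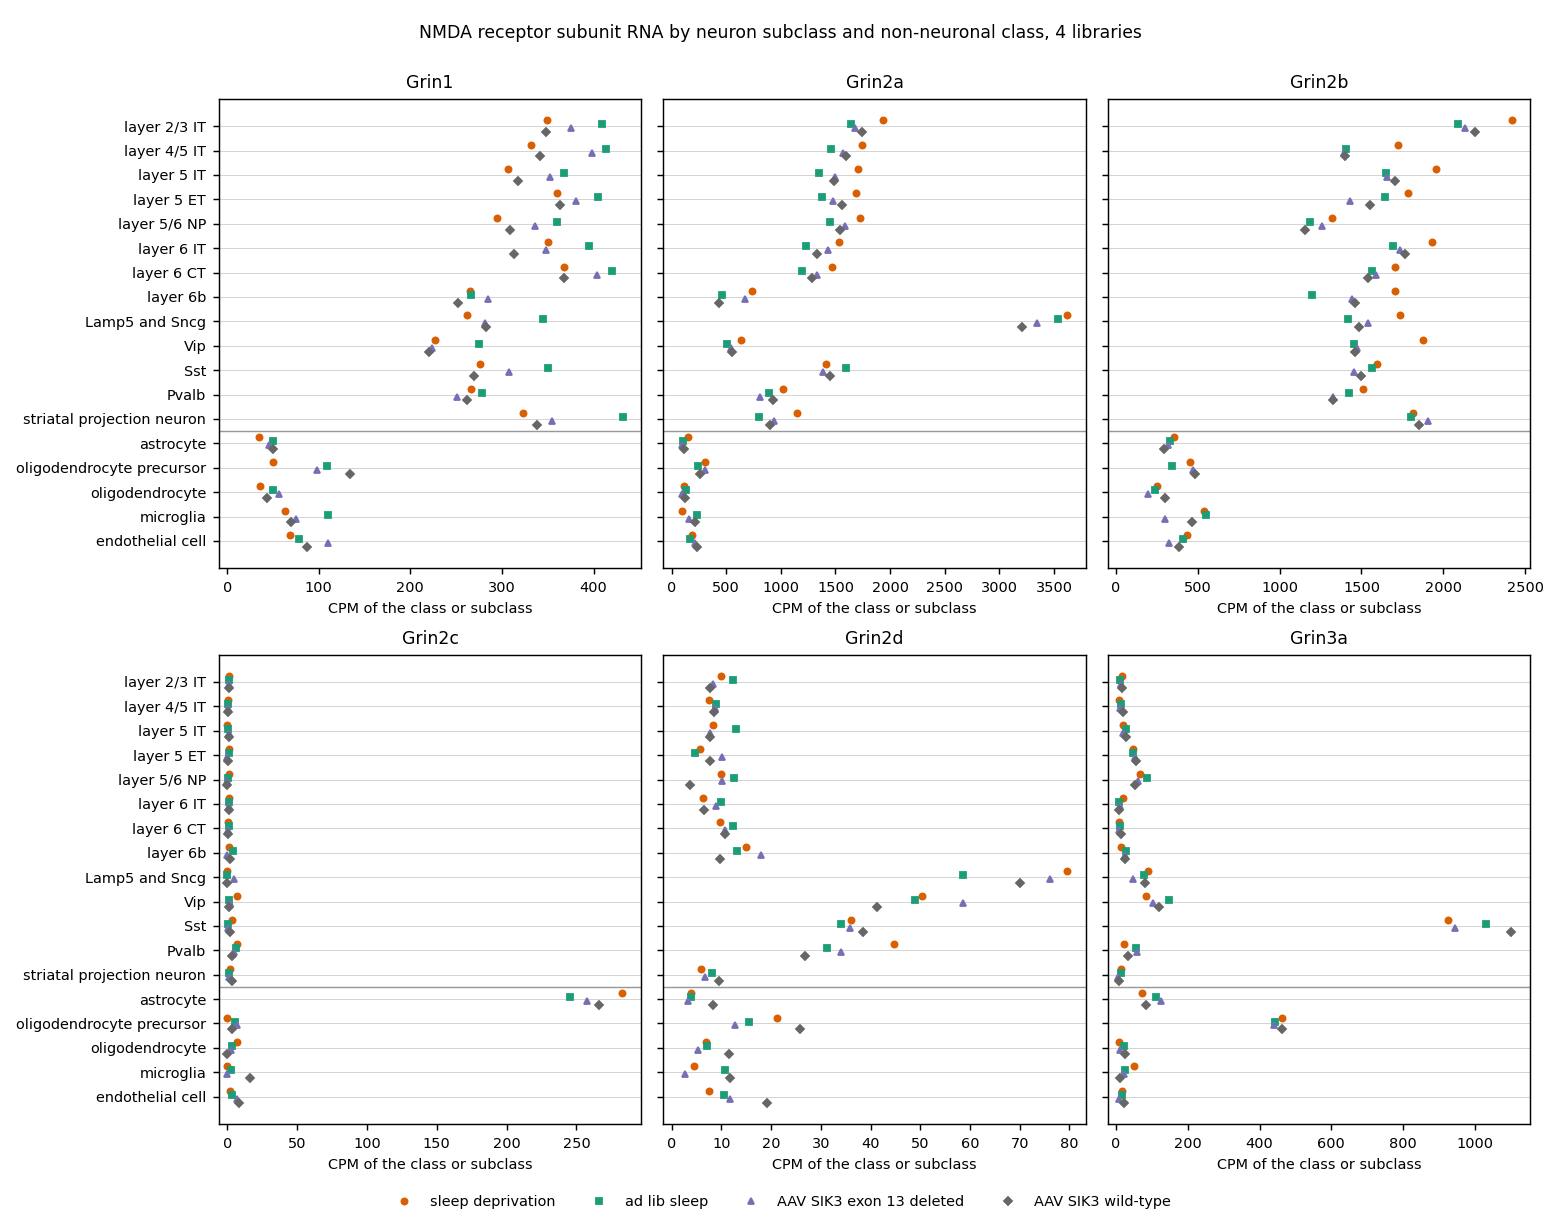
Level of 6 subunits (CPM, linear axis from 0, 1 panel per gene) in 13 neuron subclasses and 5 non-neuronal classes, below the grey line; each symbol is 1 library. Grin2a stands out in Lamp5 and Sncg cells (3206 to 3616 CPM), Grin3a in Sst cells (925 to 1100 CPM) and in oligodendrocyte precursors (442 to 462 CPM), and Grin2c in astrocytes (246 to 282 CPM), while Grin1 and Grin2b are spread over all neurons.

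The balance of Grin2a to Grin2b compares the same 2 genes in each subclass, so gene length drops out of its order. Whether a value lies above or below 0 refers to raw UMIs and still depends on length. The balance spanned a wide range. On the log2 scale, Grin2a minus Grin2b was 1.06 to 1.32 in Lamp5 and Sncg cells, 0.29 to 0.42 in layer 5/6 NP and 0.02 to 0.19 in layer 4/5 IT neurons. In these 3 subclasses Grin2a UMIs outnumbered Grin2b UMIs in all 4 libraries. Sst and layer 5 ET neurons had values on both sides of 0. The other 8 subclasses were below 0 in every library. The lowest were Vip cells, from -1.55 to -1.40, layer 6b, from -1.76 to -1.11, and striatal neurons, from -1.18 to -0.66. In layer 2/3 IT neurons, where both genes were high, the 4 libraries lay within -0.35 to -0.33. Across libraries the spread was widest in layer 6b, from 50 to 106 nuclei a library. In striatal neurons the sleep deprivation library stood apart, with a balance of -0.66, against -1.18, -1.03 and -1.04 in the ad lib, exon 13 deleted and wild-type libraries.

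**Figure D2:**
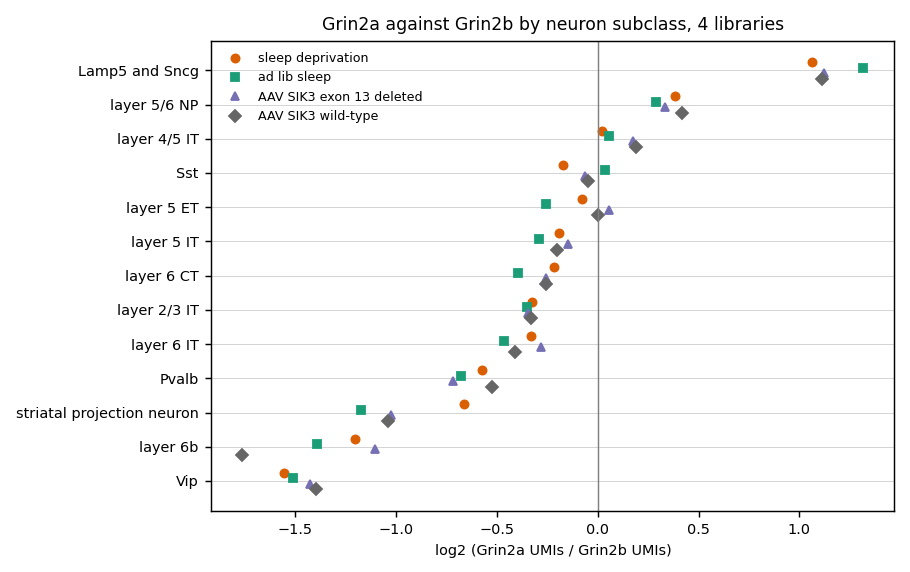
Log2 of Grin2a UMIs over Grin2b UMIs (horizontal axis) in 13 neuron subclasses, ordered by their mean; each symbol is 1 library. Lamp5 and Sncg cells lie above 1 in all 4 libraries, Vip and layer 6b below -1, and the sleep deprivation library sits apart from the others in striatal projection neurons.

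Grin2c (chromosome 11, 115249169 to 115267243, minus strand), which encodes GluN2C, a subunit known from cerebellar granule cells and from glia, was an astrocyte gene here. Astrocytes had 282 CPM in sleep deprivation, 246 in ad lib sleep, 258 with exon 13 deleted and 266 with wild type. Excitatory neurons had 0.781 to 1.13 CPM, and Pvalb cells 3.65 to 7.20 CPM. Of astrocyte nuclei, 41.2 to 52.5% had a Grin2c UMI, and 38.1 to 41.6% after thinning, which kept 259 of 316 nuclei in sleep deprivation, 370 of 621 in ad lib sleep, 269 of 373 with exon 13 deleted and 302 of 434 with wild type. In layer 2/3 IT nuclei the unthinned share was 0.843 to 1.53%, although their median depth was over 3 times that of astrocytes in each library. Their thinned share was 0.186 to 0.332%. In astrocytes Grin2c was the first of the 7 subunits on both length scales, at 14.6 CPM per kilobase of gene and 52.2 CPM per kilobase of exons.

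Grin2d (chromosome 7, 45831883 to 45878378, minus strand), which encodes GluN2D, the slowest of the GluN2 subunits and one known from interneurons, was an interneuron gene at a low level. Lamp5 and Sncg cells had 58.6 to 79.5 CPM, Vip 41.3 to 58.7, Sst 34.1 to 38.4 and Pvalb 26.9 to 44.7 CPM. The 8 excitatory subclasses and the striatal neurons had 3.78 to 18.02 CPM, and the lowest interneuron value exceeded the highest of theirs. After thinning, 7.97 to 23.6% of Lamp5 and Sncg nuclei had a Grin2d UMI (28.5 to 49.1% unthinned), against 1.51 to 2.6% of layer 2/3 IT nuclei and 0.446 to 1.74% of oligodendrocytes. Kdelr1 overlaps Grin2d on the opposite strand by 5607 bases and had 17.2 CPM in excitatory neurons, so their reads carry the same limit.

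Grin3a (chromosome 4, 49661611 to 49845744, minus strand) encodes GluN3A, which lowers calcium entry when it joins the receptor and is known mostly from early postnatal brain. In these libraries it was the member most restricted to 1 neuron subclass. Sst interneurons had 925 CPM in sleep deprivation, 1031 in ad lib sleep, 946 with exon 13 deleted and 1100 with wild type, a mean of 1000 ± 80.8 CPM. Vip cells came next with 84.2 to 148 CPM, then Lamp5 and Sncg cells with 47.1 to 87.7 CPM. Among excitatory neurons, layer 5/6 NP had 54.2 to 85.0 CPM and layer 5 ET 46.7 to 56.5 CPM, while layer 6 CT had 7.83 to 13.7 CPM. A Grin3a UMI was found in 89.8 to 94.2% of Sst nuclei, and in 72.4 to 76.3% after thinning. The thinned share was 15.8 to 21.9% in Vip cells and 1.17 to 4.78% in oligodendrocytes. Between the striatal types no order held: indirect pathway cells had 23.1, 23.5, 6.66 and 4.53 CPM in the sleep deprivation, ad lib, exon 13 deleted and wild-type libraries, and direct pathway cells 3.84 to 6.97 CPM.

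Grin3b (chromosome 10, 79970715 to 79977190, plus strand), which encodes GluN3B, a subunit known from motor neurons, gave 56 UMIs in all kept nuclei, 30 of them in excitatory neurons, where it averaged 0.263 CPM. No comparison of it was possible at this depth. It also overlaps Tmem259, which had 18.3 CPM in excitatory neurons.

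Free RNA reaches every nucleus of a droplet preparation, so levels in glia are set beside those of 8 neuron-only genes. In astrocytes those genes had 6.66 to 129% of their level in excitatory neurons, with a median of 40.5%. Grin1 (12.6%), Grin2a (7.59%) and Grin2b (18.3%) were within that span, and below its median, so they are not told apart from free RNA. The span is wide, and expression at such levels would fall inside it too. Grin2c (28270%) and Grin3a (491%) were above it. Grin3a, however, had 356 CPM in inhibitory neurons, against 19.8 CPM in excitatory neurons and 97.4 CPM in astrocytes. A percent of the excitatory level therefore does not set Grin3a in astrocytes apart from free RNA of interneurons. In oligodendrocyte precursors, cells known to carry NMDA receptors, the 8 genes had 23.1 to 106%. Grin1 at 28.1% and Grin2b at 24.7% were inside the span and Grin2a at 18.5% was below it.

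Grin3a was the main signal of the precursors. They had 462 CPM in sleep deprivation, 444 in ad lib sleep, 442 with exon 13 deleted and 462 with wild type, 2270% of the level in excitatory neurons, and 52.3 to 55.2% of their nuclei had a UMI after thinning. The mean Grin3a level of the precursors, 452 CPM, was also above the 356 CPM of inhibitory neurons as a class. Grin2d was 201% of its excitatory level in the precursors, from only 12.7 to 25.9 CPM, below its 42.6 CPM in inhibitory neurons. In the precursors Grin3a was the first of the 7 subunits per kilobase of exons, at 36.9 CPM, and the second per kilobase of gene, at 2.46 CPM behind Grin1 at 3.49. Microglia at 118% and endothelial cells at 81.0% had Grin3a within the spans of the neuron-only genes. Leptomeningeal fibroblasts were above their span of 5.69 to 106% for Grin3a (160%) and Grin2d (171%), with only 1 to 12 Grin3a UMIs a library. Both genes are higher in inhibitory than in excitatory neurons, so these percents do not set them apart from free RNA.

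**Figure D3:**
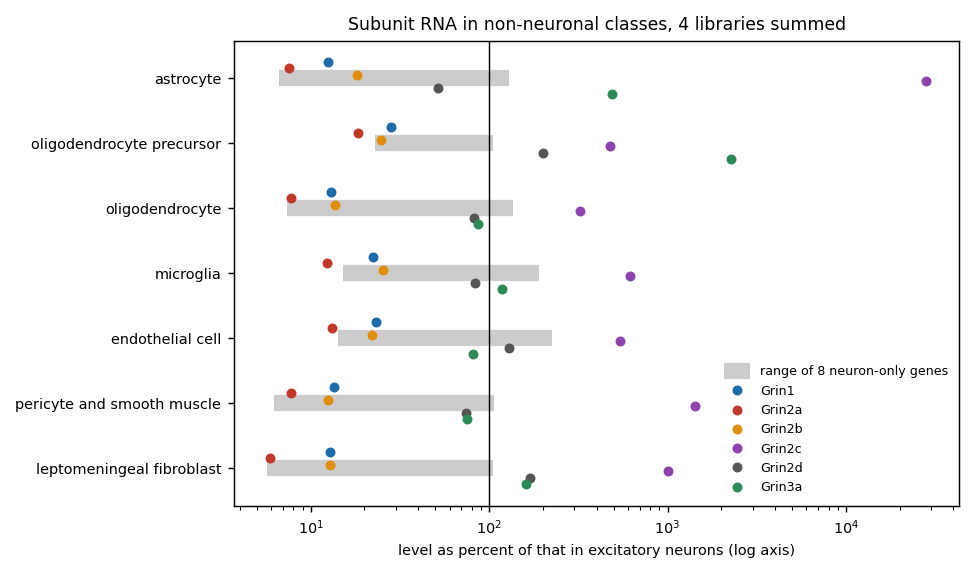
Level of 6 subunits in 7 non-neuronal classes as a percent of the level in excitatory neurons (log axis, UMIs of the 4 libraries summed); the grey bars span 8 neuron-only genes and the line marks 100%. Grin2c in astrocytes (28270%) and Grin3a in oligodendrocyte precursors (2270%) and astrocytes (491%) lie to the right of the bars, whereas Grin1, Grin2a and Grin2b lie inside them or to their left. Grin2c lies to the right in the other classes too, at under 24 CPM. The scale uses excitatory neurons, whereas Grin3a and Grin2d are higher in inhibitory neurons, which raises their percents.

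To ask how sleep need moved the subunits, the sleep deprivation library was set against the ad lib library, and a gene was called where its level was at least 25% higher in 1 library or lower by the same factor (20%). Calls also needed 10 CPM on average over the pair and 100 UMIs or more. In excitatory neurons none of the 4 subunits that passed these minimums (Grin1, Grin2a, Grin2b and Grin3a) was called, while 17.6% of 9777 genes were. Grin2a nevertheless stood at 1683 CPM in sleep deprivation, against 1366 in ad lib sleep, 1.23-fold (95% interval 1.216 to 1.248). Grin2b stood at 1978 CPM in sleep deprivation, against 1690 in ad lib sleep, 1.17-fold (1.16 to 1.18). Grin1 was lower, with 341 CPM in sleep deprivation and 398 in ad lib sleep, 0.858-fold (0.835 to 0.881). Sleep deprivation had the highest Grin2a and Grin2b of all 4 libraries. For Grin1 the ad lib library was the highest of the 4, and the wild-type vector library, with 341 CPM, was as low as sleep deprivation. Grin3a had 18.8 CPM in sleep deprivation and 20.6 in ad lib sleep, and Grin2d, below the minimum level, 8.73 and 11.2 CPM.

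Scaling matters at this size of difference. With trimmed-mean factors in place of library totals, Grin2a in excitatory neurons reached a log2 ratio of 0.37 and was called. The same change turned the split of called genes in excitatory neurons from 674 higher and 1043 lower to 1072 higher and 702 lower, and the share higher from 37.1% to 50.2% in inhibitory neurons. In excitatory neurons the summed level of 6 microglial markers was 148 CPM in sleep deprivation and 204 in ad lib sleep (0 of 6 higher), that of 5 endothelial markers 19.2 and 33.9 CPM (0 of 5 higher), that of 6 astrocyte markers 102 and 133 CPM (2 of 6 higher), and that of 7 striatal markers 1089 and 796 CPM (5 of 7 higher). None of these markers was at 0 in excitatory neurons over the 4 libraries. Their part in the subunit differences was not tested. With every excitatory nucleus thinned to the same 2000 UMIs, the log2 ratios were -0.27 for Grin1, 0.28 for Grin2a and 0.22 for Grin2b.

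**Figure D4:**
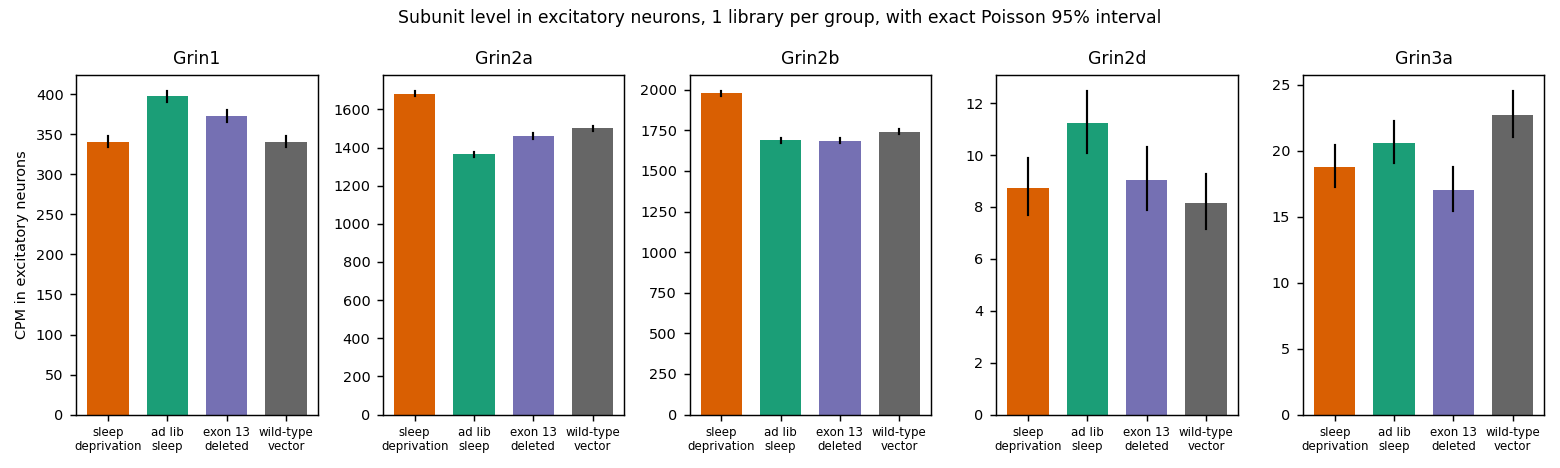
Level of 5 subunits in excitatory neurons (CPM, linear axis from 0), 1 bar per library, with exact Poisson 95% intervals that cover counting error only. Sleep deprivation has the highest Grin2a (1683 CPM) and Grin2b (1978 CPM), and the ad lib library the highest Grin1 (398 CPM).

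In inhibitory neurons none of the 5 subunits above the minimums was called either, against 19.0% of 10157 genes. Grin2b had 1636 CPM in sleep deprivation and 1470 in ad lib sleep, 1.11-fold (1.08 to 1.14). Grin1 had 261 CPM in sleep deprivation and 307 in ad lib sleep, 0.851-fold, but its log2 ratio of -0.23 shrank to -0.04 in nuclei thinned to 2000 UMIs. Grin2a, at 1366 CPM in sleep deprivation and 1344 in ad lib sleep, differed by no more than counting error. Grin2d had 47.3 CPM in sleep deprivation, against 39.2 in ad lib sleep, and Grin3a 318 against 365 CPM.

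Across the 13 neuron subclasses the directions of Grin1, Grin2a and Grin2b were nearly uniform, both as measured and relative to the median gene of each subclass. Grin1 was lower in sleep deprivation than in ad lib sleep in 13 of 13, Grin2b higher in 13 of 13 and Grin2a higher in 12 of 13. Grin2d was higher in 3 of the 6 subclasses where it passed the minimums, and Grin3a in 3 of 8. The subclasses of 1 library share its preparation, so these counts are no replication. Of the 53 pairs of a subunit and a subclass above the minimums, 18 (34.0%) were called, 9 higher and 9 lower, where the same rule called 27.0% of all gene and subclass pairs. Grin2a was called in layer 5 IT, layer 6 IT, layer 6b, Vip and striatal neurons. Its largest difference was in layer 6b, with 740 CPM in sleep deprivation and 457 in ad lib sleep, 1.62-fold, from 50 and 106 nuclei. Sst cells were the exception, with 1412 CPM in sleep deprivation and 1599 in ad lib sleep. Grin2b was called in layer 6b, at 1708 CPM in sleep deprivation and 1198 in ad lib sleep, and in Vip cells, at 1878 and 1454 CPM.

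Grin1 was called lower in Sst cells, at 277 CPM in sleep deprivation and 350 in ad lib sleep, in Lamp5 and Sncg cells, at 262 and 345 CPM, and in striatal neurons. Grin3a had the widest spread among subclasses. In Pvalb cells it stood at 22.6 CPM in sleep deprivation, against 56.6 in ad lib sleep, 0.40-fold (0.279 to 0.564), from 44 and 150 UMIs. The share of Pvalb nuclei with a Grin3a UMI was 17.8% in sleep deprivation and 17.1% in ad lib sleep, and 5.26% and 7.12% after thinning, with overlapping intervals, so the shares do not show the difference in level. In Vip cells Grin3a stood at 84.2 CPM in sleep deprivation, against 148 in ad lib sleep, 0.568-fold (0.438 to 0.729). There too the shares of nuclei did not show it, with 36.1% in sleep deprivation and 30.3% in ad lib sleep. After thinning they were 15.8% and 19.3%, with overlapping intervals. In Sst cells, which hold most of it, Grin3a stood at 925 CPM in sleep deprivation and 1031 in ad lib sleep, 0.897-fold, and was not called. It was also called lower in layer 5 IT and layer 5/6 NP neurons and higher in layer 2/3 IT neurons, at 15.7 against 12.2 CPM. The NP call rests on 47 and 88 UMIs and the layer 2/3 IT call on 130 and 95 UMIs. In both subclasses the 95% intervals of the levels overlapped. Grin2d was called higher in Pvalb cells, at 44.7 CPM in sleep deprivation and 31.3 in ad lib sleep, and lower in layer 5 IT and layer 6 CT neurons. In each of these subclasses the 95% intervals of its levels overlapped, and the layer 6 CT call rests on 53 and 83 UMIs. Overlap of the intervals of 2 levels does not mean that the interval of their ratio includes 1.

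In the striatal neurons 2 of 3 subunits above the minimums were called, against 34.6% of 6564 genes. Grin2a had 1147 CPM in sleep deprivation, against 797 in ad lib sleep, 1.44-fold (1.35 to 1.53). The exon 13 deleted and wild-type libraries, with 938 and 902 CPM, lay between them. Both striatal types showed it, with 1215 against 815 CPM in direct pathway and 1114 against 783 CPM in indirect pathway cells. Grin1 had 323 CPM in sleep deprivation and 432 in ad lib sleep, 0.746-fold (0.678 to 0.821). For Grin1 the ad lib library was the odd one, since the other 3 lay at 323 to 355 CPM. With trimmed-mean scaling the median log2 ratio of all genes in striatal neurons moved by more than 0.1, from -0.08 to 0.10, the Grin2a ratio went to 0.70 and the Grin1 ratio to -0.25, which ends the Grin1 call. Relative to the median gene, Grin2a was 0.60 higher and Grin1 fell by 0.35 on the log2 scale. The share of called genes that were higher moved from 35.0% to 70.5%. The median depth of a striatal nucleus was 10984 UMIs in sleep deprivation and 5678 in ad lib sleep.

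In astrocytes 3 of 5 subunits were called, against 32.2% of 5531 genes, all from few UMIs. Grin3a had 71.2 CPM in sleep deprivation and 110 in ad lib sleep, from 91 and 173 UMIs. Grin2a had 152 CPM in sleep deprivation and 103 in ad lib sleep, and Grin1 35.2 and 50.4 CPM, both at a level not told apart from free RNA above. Grin2c, the main subunit of these cells, had 282 CPM in sleep deprivation and 246 in ad lib sleep and was not called.

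**Figure D5:**
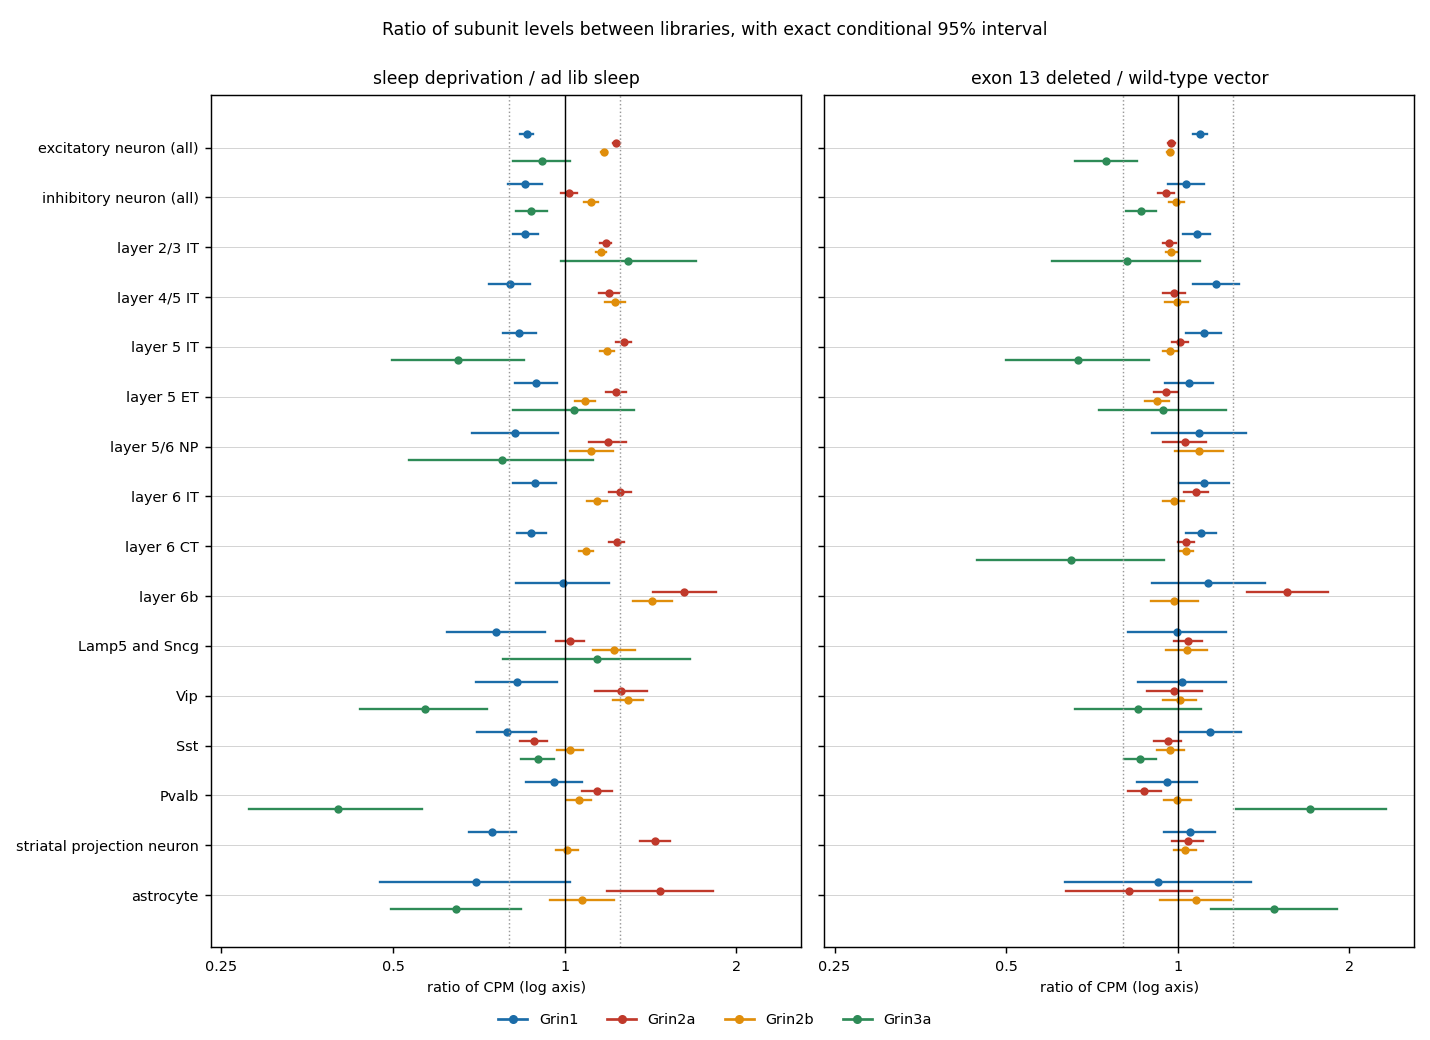
Ratio of CPM between libraries (log axis) for Grin1, Grin2a, Grin2b and Grin3a in neuron classes, 13 subclasses and astrocytes, with exact conditional 95% intervals for counting error; dotted lines mark the 25% rule either way, and pairs below the minimum level are left out. On the left, sleep deprivation over ad lib sleep, Grin1 lies below 1 throughout and Grin2b above it, and on the right, exon 13 deleted over wild-type vector, most ratios of these genes are nearer to 1, except for Grin2a in layer 6b and for Grin3a.

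The second comparison set the library with exon 13 deleted SIK3 against the one with wild-type SIK3. The excitatory class holds 1 cluster of 145 nuclei that was given no subclass. Of these nuclei 82.1% came from the exon 13 deleted library, and the vector feature was their most enriched feature against all other kept nuclei. Sik3 itself, which includes the reads of any vector transcript that match it, was 192 CPM with exon 13 deleted and 193 with wild type in excitatory neurons. There the GluN2 subunits were close to each other in both libraries. Grin2a had 1462 CPM with exon 13 deleted and 1501 with wild type, 0.974-fold (0.960 to 0.988), and Grin2b 1687 and 1741 CPM, 0.969-fold. Grin1 had 373 CPM with exon 13 deleted and 341 with wild type, 1.10-fold (1.06 to 1.13). With each of the 8 excitatory subclasses given equal weight the Grin2a log2 ratio went from -0.04 to 0.04, and in nuclei with no vector UMI that of Grin2b from -0.05 to 0.00, so the data give no direction for either gene.

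Grin3a was the 1 subunit of 4 called in excitatory neurons, against 4.02% of 9790 genes. It had 17.0 CPM with exon 13 deleted and 22.7 with wild type, 0.749-fold (0.661 to 0.848). With equal weight to the 8 subclasses the levels were 25.5 CPM with exon 13 deleted and 27.7 with wild type, 0.920-fold, and no call was made. The called genes were 346 higher and 48 lower as measured, and 188 higher and 117 lower with trimmed-mean scaling. In excitatory neurons the 6 astrocyte markers summed to 126 CPM with exon 13 deleted and 128 with wild type (2 of 6 higher), the 6 microglial markers to 161 and 171 CPM (3 of 6 higher), the 5 endothelial markers to 19.6 and 24.1 CPM (2 of 5 higher), and the 6 leptomeningeal markers to 3.001 and 3.72 CPM (2 of 6 higher). The 7 striatal markers summed to 848 CPM with exon 13 deleted and 948 with wild type, although 6 of 7 were higher. Their part in the Grin3a difference was not tested.

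In inhibitory neurons none of 5 subunits was called, against 9.53% of 10126 genes. Of the called genes there, 59.0% were higher as measured and 48.0% with trimmed-mean scaling. Grin3a was the farthest from 1, with 344 CPM with exon 13 deleted and 398 with wild type, 0.863-fold (0.812 to 0.916), and its log2 ratio of -0.21 shrank to -0.04 in thinned nuclei. In striatal neurons none of 3 subunits was called, against 18.8% of 6975 genes. In astrocytes 1 of 5 was called, against 21.3% of 5019 genes: Grin3a had 124 CPM with exon 13 deleted and 84.2 with wild type, 1.47-fold (1.14 to 1.90), from 151 and 110 UMIs.

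By subclass, 6 of 51 pairs (11.8%) were called, where the same rule called 15.4% of all gene and subclass pairs. Grin1 was higher with exon 13 deleted in 11 of 13 subclasses, none called, and its largest ratio was in layer 4/5 IT neurons, with 399 CPM against 342 with wild type. Grin2a was called in layer 6b, with 670 CPM with exon 13 deleted and 431 with wild type, 1.55-fold, from 58 and 57 nuclei. Grin3a was called lower in layer 5 IT, at 18.9 CPM with exon 13 deleted and 28.2 with wild type, and in layer 6 CT, at 8.93 and 13.7 CPM. In Pvalb cells it was called higher, at 57.6 CPM with exon 13 deleted and 33.7 with wild type, while 6.25% and 4.92% of thinned nuclei had a UMI, with overlapping intervals. The Grin3a values of Pvalb cells in the other libraries were 22.6 CPM in sleep deprivation and 56.6 in ad lib sleep, so exon 13 deleted and ad lib sleep were the high pair of the 4 libraries. Grin2d was called higher in Pvalb and Vip cells, at 34.2 and 58.7 CPM with exon 13 deleted, against 26.9 and 41.3 CPM with wild type, and both intervals of the ratio include 1.

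Of 43 genes that act with the receptor, 35 passed the minimums in excitatory neurons in the sleep comparison. In all, 11 were called higher in sleep deprivation and 1 lower, where 17.6% of 9777 genes were called, 674 higher and 1043 lower. The median log2 ratio of the 35 was 0.12, against -0.02 for all genes. The trafficking group had 4 of 8 called higher, the kinases, phosphatases and proteases 4 of 12, signalling genes 2 of 7 with 1 lower, the scaffolds 1 of 6 and the glycine and D-serine genes 0 of 2. Dlg4, which encodes the scaffold PSD-95 that binds GluN2 tails, had 93.9 CPM in sleep deprivation and 66.5 in ad lib sleep, 1.41-fold. Sorcs2, a sorting receptor, had 69.7 against 50.03 CPM, and Kif17, the dendritic motor that carries GluN2B, 34.5 against 25.2 CPM. Rasgrf2, a calcium-dependent Ras exchange factor, was the 1 gene called lower, with 106 CPM in sleep deprivation and 135 in ad lib sleep, 0.782-fold. Next lowest, and not called, were Lin7a (161 against 180 CPM), the scaffold gene Dlg1 (346 against 379 CPM) and the amino acid transporter gene Slc1a4 (10.8 against 11.8 CPM).

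With exon 13 deleted SIK3, 36 of the 43 genes passed, and 2 were called higher than with wild type and none lower, where 4.02% of 9790 genes were called, 346 higher and 48 lower. The count is near that share. The median log2 ratio of the 36 was 0.02, against 0.03 for all genes. The 2 were Sorcs2, with 67.0 CPM with exon 13 deleted and 47.4 with wild type, 1.41-fold, and Slc6a9, which encodes the glycine transporter GLYT1, with 11.8 and 8.84 CPM, 1.33-fold. Kif17 had 29.3 CPM with exon 13 deleted and 24.6 with wild type, and Nsmf 53.2 and 48.6 CPM, neither called. At the lower end, also not called, were Dlg1 with 354 CPM with exon 13 deleted and 389 with wild type, Csnk2a1 with 85.9 and 92.0 CPM, and Rasgrf1 with 208 and 222 CPM. Sorcs2 was the 1 partner gene called higher in both comparisons. In nuclei with no vector UMI none of the partner genes was called in this comparison.

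The patterns most like those of the subunits were sought over the 13 neuron subclasses among 10101 genes, by Pearson's r of log2 (CPM + 1) averaged over the 4 libraries. The 13 points come from the same libraries and differ in depth, so r is a description. Grin3a was most like Slc1a4 (r = 0.94), Mthfs (0.92) and Pstpip2 (0.90), all highest in Sst cells. Grin2d was most like Gm15655 (0.97), Acbd5 (0.96) and Dlx1as (0.96), the first 2 highest in Lamp5 and Sncg cells and Dlx1as in Vip cells. Grin1 was most like Gba2 (0.90), Adgrl2 (0.89) and Adgrb1 (0.89), which like Grin1 were lowest in Vip cells. Grin2a was most like Prpf31 (0.88), Commd4 (0.86) and Pop1 (0.85), genes of under 32 CPM in every subclass. Grin2b was most like its own antisense neighbour Gm14330 (0.90), Lactb (0.90) and 4732440D04Rik (0.86), all highest in layer 2/3 IT neurons.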

How the data were processed

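Single nuclei from 4 libraries, 1 per group, were profiled with a droplet 3' kit, per the labels' protocols. The deposited values are raw UMI counts per gene and barcode in filtered matrices; per the file headers and the submitters' processing notes the authors ran Cell Ranger 6.1.2 against mm10, and intron and strand settings are not given in the sources used here. No column of per-sample values was left unused (0). The members and gene lists were chosen with earlier results of these data known.

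Nuclei with at least 500 genes and under 5% mitochondrial UMIs were kept, and the top 0.8% of Scrublet scores per 1000 barcodes were left out as doublets. Clustering (scanpy 1.11.5, leidenalg 0.10.2) used 2000 variable genes without the members, their partners, neuron-only, vector, mitochondrial and sex-linked genes, values centred within library, 30 components, 15 neighbours and resolution 1 (0.6 within striatal neurons). Clusters were named from fixed markers with thresholds set after the data were seen, so they are rebuilt names. UMIs were summed per class and library and scaled to 1000000 (CPM). Levels carry exact Poisson 95% intervals, ratios exact conditional ones, and shares of nuclei Clopper-Pearson ones, for counting error only. Calls needed a level 25% higher, or 20% lower, a mean of 10 CPM and 100 UMIs. This step was tested on simulated data. Gene positions and lengths are from GENCODE vM21. Named genes were all 7 subunits, the 4 highest and 4 lowest partner genes per comparison (1 of them is not reported here), and for each subunit with a mean of 10 CPM over subclasses the 3 most correlated genes. Alternatives were TMM factors (edgeR 4.0.16), size factors (DESeq2 1.42.0), other minimums, thinning to 2000 UMIs, mean over nuclei, doublets kept, and other clusterings. Reads, and sequences of the subunits, were not used here.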

Additional observations from a re-analysis of the deposited data

How the results depend on the processing

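No direction was reversed among called ratios. The count of subunits called in excitatory neurons for sleep deprivation over ad lib sleep was 0; it was 1 with TMM factors and 1 with DESeq2 size factors (Grin2a in each), 3 with no minimum level (Grin2c, Grin2d and Grin3b, all of few UMIs), 1 after thinning and 1 as a mean over nuclei (Grin2d in both). In inhibitory neurons it was 0, 1 with no minimum level (Grin2c; Grin3b, with 0 UMIs in sleep deprivation and 9 in ad lib sleep, has no ratio and was not counted) and 1 as a mean over nuclei (Grin2d). For exon 13 deleted over wild type, 1 subunit was called in excitatory neurons, 0 with a minimum of 50 CPM, 0 at a 1.5-fold rule and 0 with equal weight to the 8 subclasses, an alternative chosen after seeing the data. In inhibitory neurons 0 were called, 2 with no minimum level (Grin2c and Grin3b) and 1 after thinning (Grin2d). The 12 partner genes called in the sleep comparison fell to 1 at a 1.5-fold rule. The 2 called with exon 13 deleted became 1 with a minimum of 50 CPM, 4 with none, 0 at a 1.5-fold rule, 1 without clusters mostly of 1 library, 0 in nuclei without vector UMIs and 1 with equal weight. The cause of these moves was not tested, except that a stricter minimum or fold keeps fewer genes. The count of subunits with the same highest neuron subclass in all 4 libraries was 4 (Grin2a, Grin2b, Grin2d and Grin3a), 4 without library centring, 4 at resolution 2 and 3 after thinning. No paired analysis was possible because each group has 1 library, and no library could be left out for the same reason. Grin3b, and Grin2c and Grin2d outside the classes that hold them, are limited by depth.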

Other observations

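The wild-type vector and ad lib sleep libraries differ by injection, vector and SIK3 together, which cannot be told apart, and the ad lib library also serves the sleep comparison. Grin1 in excitatory neurons was 341 CPM with the wild-type vector and 398 in ad lib sleep, and it was lower with the vector in 13 of 13 neuron subclasses. Grin2a was 1501 CPM with the vector and 1366 in ad lib sleep, and Grin2b 1741 and 1690 CPM. Nos1ap, which encodes an adaptor of neuronal nitric oxide synthase, was 493 CPM with the vector and 400.2 in ad lib sleep. In nuclei of unnamed clusters, Grin2b was 1204 CPM in sleep deprivation and 979 in ad lib sleep, and 1054 with exon 13 deleted and 941 with wild type. Their Grin1 was nearly level, between 181 and 184 CPM in the 4 libraries.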
